A study of Homo sapiens with 8 samples.

Results

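The 9 genes described here, NQO1, HMOX1, GCLM, GCLC, TXNRD1, SRXN1, PGD, TALDO1 and SQSTM1, are antioxidant and detoxifying genes that are commonly listed as targets of the transcription factor NRF2. They were taken by symbol from 30798 symbols of the deposited expression table, with the row of highest mean level used where a symbol was repeated. All 9 were measured in all 8 libraries, and all 9 were among the 11820 genes with a mean of at least 1 FPKM (fragments scaled to transcript length and to the number of mapped fragments) that entered the tests.

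Every library was made from KCL-22, a line derived from human chronic myeloid leukemia at the blast crisis stage and driven by the kinase BCR-ABL, and every cell carried a ClonTracer barcode, a DNA tag inherited by the progeny of the tagged cell. The vehicle population (1 library) was grown for 7 days with 0.1% DMSO. Resistant populations (1 library each) were the cells that survived 27 days of 2.5 µM imatinib, 27 days of 0.3 µM nilotinib or 21 days of GNF-2 at 2.5 µM. Imatinib and nilotinib occupy the catalytic site of ABL, whereas GNF-2 acts allosterically from the myristate pocket. Clone 1, Clone 2 and Clone 4 were sorted as single cells from cells resistant to 2.5 µM GNF-2 and had never met a catalytic-site inhibitor, and Clone 3 was sorted from cells resistant to 2.5 µM imatinib and had never met an allosteric one. By the resistance that the labels give, the imatinib population, the nilotinib population and Clone 3 form the catalytic-site group (n = 3), the GNF-2 population, Clone 1 and Clone 2 form the GNF-2 group (n = 3), and Clone 4, resistant to all 3 inhibitors, stands alone (n = 1). Each clone is the expansion of 1 cell, and the labels do not say whether a sequenced population was the culture from which a clone was sorted, nor do they describe the libraries in a group as independent cultures. The p-values therefore measure only the spread among these libraries, which may be technical.

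NRF2, encoded by NFE2L2, is held in the cytoplasm and marked for degradation by KEAP1, a sensor whose cysteines react with oxidants and electrophiles. When that degradation stops, NRF2 enters the nucleus, pairs with a small MAF protein and binds the antioxidant response element near its target genes. The targets make and recycle glutathione and thioredoxin, supply NADPH, and remove quinones, heme and damaged protein.

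The antioxidant response element has the core TGACNNNGC, and its occurrences just upstream of the genes are shown because the genes with the core can then be set beside their levels. RefSeq promoter windows on GRCh38.p14, reaching from 250 bases before to 50 bases after a transcript start, were found for 8 of the 9 genes (11 windows, none for HMOX1). Both strands were searched, and 4 of the 11 windows, belonging to 3 genes, held the core, against 13.35% of all 35116 windows in the table and 16.06% of its 27305 genes. Below, the 250 bases upstream of the start of GCLM and of 1 of the TXNRD1 transcripts are given 5′ to 3′ in the direction of the gene, with the core in capitals.
GCLM, minus strand, chr1:93909431-93909680: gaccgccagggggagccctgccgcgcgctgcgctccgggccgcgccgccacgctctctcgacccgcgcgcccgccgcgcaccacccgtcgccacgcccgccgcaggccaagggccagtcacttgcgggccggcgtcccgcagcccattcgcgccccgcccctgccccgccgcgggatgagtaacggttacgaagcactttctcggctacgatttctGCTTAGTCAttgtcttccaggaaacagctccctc
TXNRD1, plus strand, chr12:104215529-104215778: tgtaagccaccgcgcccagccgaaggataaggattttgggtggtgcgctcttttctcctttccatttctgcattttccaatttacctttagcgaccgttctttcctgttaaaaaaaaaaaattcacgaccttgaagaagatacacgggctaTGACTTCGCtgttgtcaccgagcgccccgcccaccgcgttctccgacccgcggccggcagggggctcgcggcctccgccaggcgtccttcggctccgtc
In GCLM the match begins at position -34 from the transcript start and reads TGACTAAGC on the strand opposite to the gene. In this TXNRD1 window 1 match, TGACTTCGC, begins at position -99, and another, TGACGGAGC on the opposite strand, begins at position -8 and runs past the stretch shown. A further TXNRD1 window (chr12:104286782-104287081) held TGACAAAGC at position -102, and the PGD window (chr1:10398814-10399113) held TGACATTGC at position -201, both on the opposite strand. The core shares its TGAC start with the AP-1 site TGACTCA, which was not searched for. A match of letters is no evidence of binding, and elements outside these windows were not searched.

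Rough estimates from intronless genes put the depth at 18000000 to 39400000 fragments per library, with Clone 4 at 20200000, and 11191 to 11938 genes reached 1 FPKM. The labelled identity was checked on 10 myeloid and erythroid markers, whose FPKM summed to 275 to 401 in the populations, 234 to 309 in Clones 1 to 3 and 368 in Clone 4. GATA2 (145 to 287 FPKM), ANPEP (14.6 to 78.3 FPKM) and PTPRC (16.5 to 88.0 FPKM) were present throughout, while MPO and KIT were at or near 0 in every library, and SPI1 was listed at 0 in Clone 3 and Clone 4. PTPRC, the pan-leukocyte surface phosphatase CD45, was lower in the clones than in the resistant populations (log2 difference -1.27, limma adjusted p = 0.0306) and lowest in Clone 4, and that call was lost in 7 of 18 alternatives (highest limma adjusted p = 0.212). CD34, a marker of immature blood cells, was at 12.2 FPKM in Clone 4 and at 0.378 to 3.08 FPKM elsewhere. The part of these marker differences in the results on the 9 genes was not tested. Of 10 markers of lymphoid, epithelial, fibroblast and endothelial cells, KRT8 and KRT18 carried most of the sum, which was 40.1 to 44.8 FPKM in the populations, 82.0 to 133 FPKM in Clones 1 to 3 and 34.0 FPKM in Clone 4. In Clone 4 the other 8 of these markers were all under 1 FPKM, and the summed level of the list was the lowest of the 8 libraries. Clone 2, of the GNF-2 group, departed from the rest. There 4 of the 10 markers reached 1 FPKM, against 2 in each other library, with COL1A2 at 4.61 FPKM and PECAM1 at 1.92 FPKM. Of the myeloid and erythroid markers, GATA1 was at 8.55 FPKM in Clone 2 and at most 1.38 FPKM elsewhere.

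Clone 4 had the highest level of 8 of the 9 genes among the 8 libraries, PGD being the exception, whereas 18.7% of all tested genes were highest in Clone 4. NQO1, GCLM and TXNRD1 were at least 2-fold above every other library there. That margin, together with at least 5 FPKM in Clone 4, was reached by 102 of the 11820 tested genes. Each gene is described below by its role, with the level in every library, before the comparisons between groups.

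**Figure D1:**
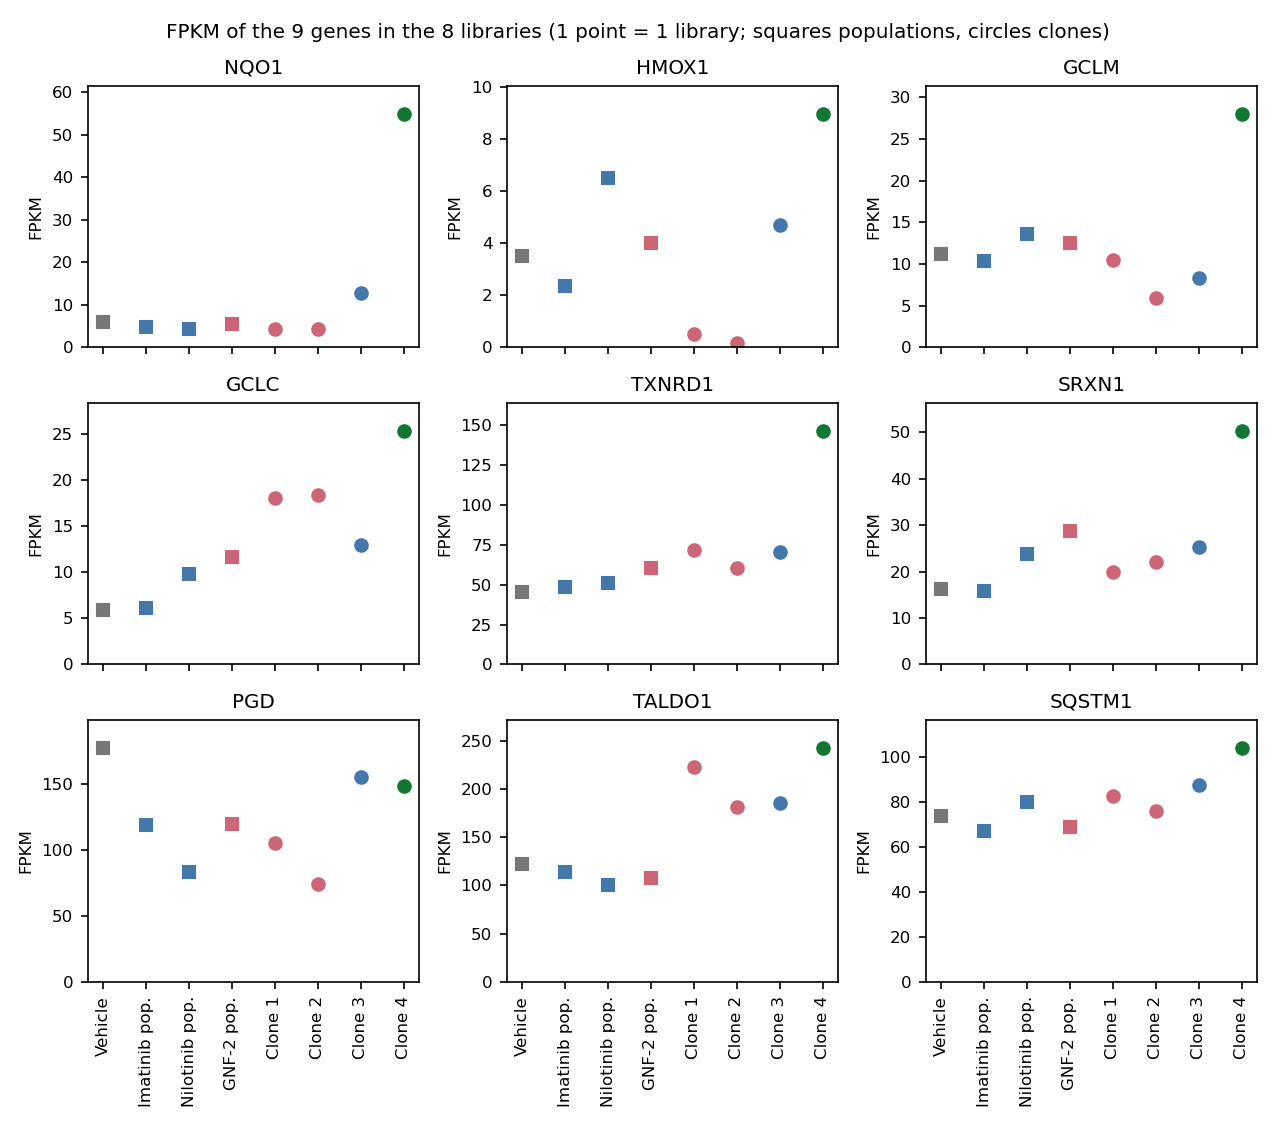
FPKM (vertical axes, each starting at 0 with its own scale) of the 9 genes in the 8 libraries (horizontal axes); each point is 1 library, squares are populations and circles are clones, with vehicle in grey, the catalytic-site group in blue, the GNF-2 group in red and Clone 4 in green. Clone 4 is the highest point in 8 panels, and in the PGD panel the vehicle population is highest at 177 FPKM.

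NQO1 (chr16:69743303-69760533 on GRCh37, as are the gene positions that follow) encodes NAD(P)H quinone dehydrogenase 1, which reduces quinones without passing through the radical form. Its level was 5.998 FPKM in the vehicle population, 4.80 FPKM in the imatinib population, 4.18 FPKM in the nilotinib population, 5.41 FPKM in the GNF-2 population, 4.18 FPKM in Clone 1, 4.33 FPKM in Clone 2, 12.8 FPKM in Clone 3 and 54.9 FPKM in Clone 4. Thus 6 libraries lay close together, Clone 3 stood above them, and Clone 4 was 4.28-fold above Clone 3 and 10.1-fold above the GNF-2 population. The levels in the 4 populations spanned only 1.43-fold.

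HMOX1 (chr22:35777059-35790207) encodes heme oxygenase 1, which opens the heme ring to biliverdin, iron and carbon monoxide. Its level was 3.49 FPKM in the vehicle population, 2.34 FPKM, 6.50 FPKM and 4.70 FPKM in the imatinib population, the nilotinib population and Clone 3, 3.99 FPKM, 0.525 FPKM and 0.176 FPKM in the GNF-2 population, Clone 1 and Clone 2, and 8.95 FPKM in Clone 4. The low pair, Clone 1 and Clone 2, came from the same GNF-2-resistant cells as Clone 4, so these 3 clones held both the lowest and the highest level of the gene. At the estimated depths the low values stand for about 37.7 fragments in Clone 1 and 7.44 fragments in Clone 2, so the lower of them is imprecise.

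GCLC (chr6:53362139-53409927) and GCLM (chr1:94352589-94375012) encode the catalytic and the modifier subunit of glutamate-cysteine ligase, the rate-limiting enzyme of glutathione synthesis. GCLC stood at 5.94 FPKM in the vehicle population, at 6.16 FPKM, 9.83 FPKM and 13.0 FPKM in the imatinib population, the nilotinib population and Clone 3, at 11.6 FPKM, 18.0 FPKM and 18.3 FPKM in the GNF-2 population, Clone 1 and Clone 2, and at 25.3 FPKM in Clone 4. All 7 resistant libraries were above the vehicle library, the imatinib population only slightly, and all 4 clones were above all 4 populations. GCLM stood at 11.2 FPKM in the vehicle population, at 10.4 FPKM, 13.6 FPKM and 8.26 FPKM in the imatinib population, the nilotinib population and Clone 3, at 12.6 FPKM, 10.5 FPKM and 5.87 FPKM in the GNF-2 population, Clone 1 and Clone 2, and at 28.0 FPKM in Clone 4. The modifier subunit therefore did not follow the catalytic one library by library: Clone 2 had the second highest GCLC and the lowest GCLM, and both were highest in Clone 4.

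TXNRD1 (chr12:104606487-104744062) encodes the cytosolic thioredoxin reductase, a selenoprotein that uses NADPH to keep thioredoxin reduced. It was measured at 45.6 FPKM in the vehicle population, at 48.9 FPKM, 51.0 FPKM and 70.3 FPKM in the imatinib population, the nilotinib population and Clone 3, at 60.5 FPKM, 71.9 FPKM and 60.2 FPKM in the GNF-2 population, Clone 1 and Clone 2, and at 146 FPKM in Clone 4. The 7 libraries other than Clone 4 spanned 1.58-fold, with the vehicle library lowest, and Clone 4 was 2.04-fold above the next. SRXN1 (chr20:627267-656823) encodes sulfiredoxin, which rescues peroxiredoxins that have been over-oxidised. It was measured at 16.3 FPKM in the vehicle population, at 15.8 FPKM, 23.8 FPKM and 25.2 FPKM in the imatinib population, the nilotinib population and Clone 3, at 28.7 FPKM, 19.9 FPKM and 21.98 FPKM in the GNF-2 population, Clone 1 and Clone 2, and at 50.2 FPKM in Clone 4. Clone 4 was 1.75-fold above the GNF-2 population, the next highest, and the vehicle and imatinib libraries were the lowest.

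PGD (chr1:10459084-10480201) encodes 6-phosphogluconate dehydrogenase, an NADPH-yielding step of the oxidative pentose phosphate pathway, and TALDO1 (chr11:747431-765024) encodes transaldolase of its non-oxidative branch. PGD was present at 177 FPKM in the vehicle population, at 119 FPKM, 82.9 FPKM and 155 FPKM in the imatinib population, the nilotinib population and Clone 3, at 120 FPKM, 106 FPKM and 73.8 FPKM in the GNF-2 population, Clone 1 and Clone 2, and at 149 FPKM in Clone 4. It was the single gene of the 9 that was highest in the vehicle library, with 0 of the 7 resistant libraries above it, and Clone 4 ranked behind Clone 3. TALDO1 was present at 122 FPKM in the vehicle population, at 114 FPKM, 101 FPKM and 186 FPKM in the imatinib population, the nilotinib population and Clone 3, at 107 FPKM, 223 FPKM and 181 FPKM in the GNF-2 population, Clone 1 and Clone 2, and at 243 FPKM in Clone 4. For TALDO1 the libraries fell apart by kind: the 4 populations spanned 1.21-fold, and each of the 4 clones lay above all of them.

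SQSTM1 (chr5:179233387-179265077) encodes p62, an autophagy receptor that also binds KEAP1. Its level was 73.8 FPKM in the vehicle population, 67.1 FPKM, 80.2 FPKM and 87.6 FPKM in the imatinib population, the nilotinib population and Clone 3, 68.9 FPKM, 82.9 FPKM and 76.2 FPKM in the GNF-2 population, Clone 1 and Clone 2, and 104 FPKM in Clone 4. It was the steadiest of the 9 genes, with 1.55-fold between the highest and the lowest library. The listed span of SQSTM1 overlaps that of MGAT4B (chr5:179224597-179233952), a gene at 73.4 to 119 FPKM. No source used here says whether strand was used in counting, so fragments from the overlap cannot be assigned between SQSTM1 and MGAT4B. C5orf45 and the transcript uc021yjh, whose listed spans also overlap that of SQSTM1, were listed at 0 in every library. EID3, inside the listed span of TXNRD1, and SCRT2, inside the listed span of SRXN1, were at or near 0 (at most 0.225 FPKM). Listed spans need not be the true extent of a gene.

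The first comparison asked whether cells resistant to catalytic-site inhibitors differed from cells resistant to GNF-2. None of the 9 genes was called by limma at an adjusted p of 0.05 (background 0.0338% of tested genes, 4 genes), and 0 of the 9 had an unadjusted p under 0.05 (background 4.87%). HMOX1 averaged 4.51 ± 2.09 FPKM (SD, n = 3) in the catalytic-site group and 1.56 ± 2.11 FPKM (SD, n = 3) in the GNF-2 group, a log2 difference of 1.33 (SE 0.60, limma adjusted p = 0.845), and the groups overlapped because the GNF-2 population was above the imatinib population. The ranges of the groups overlapped for GCLC as well. Its means were 9.66 ± 3.41 FPKM in the catalytic-site group and 16.0 ± 3.78 FPKM in the GNF-2 group (SD, n = 3 each), a log2 difference of -0.70 (SE 0.30, limma adjusted p = 0.845). The median log2 difference of the 9 genes was 0.04, beside -0.01 over all tested genes.

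Against the single vehicle library, which has no replicate and is assumed to vary like the others, 0 of the 9 genes were called in the catalytic-site group (background 0.00846%, 1 gene), and 0 of the 9 had an unadjusted p under 0.05 (background 2.69%). In the GNF-2 group 0 of the 9 were called (background 0.0931%, 11 genes), and 1 of the 9, GCLC, had an unadjusted p under 0.05 (background 11.1%). The log2 difference of GCLC from vehicle was 1.27 (SE 0.42, limma adjusted p = 0.440) in the GNF-2 group and 0.57 in the catalytic-site group (limma adjusted p = 1). PGD differed from vehicle by -0.85 (SE 0.40, limma adjusted p = 0.474) in the GNF-2 group and by -0.62 (limma adjusted p = 1) in the catalytic-site group. These contrasts share the vehicle library, so the values of GCLC and PGD in them are not independent. The median log2 difference of the 9 genes from vehicle was 0.09 in the catalytic-site group and 0.04 in the GNF-2 group, beside 0.02 and 0.04 over all tested genes.

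Each outgrown population was also set beside the vehicle library without a test, counting genes at least 2-fold apart with at least 5 FPKM in the higher library. In the imatinib population 0 of 8 genes that reached 5 FPKM passed that fold (background 3.84%), and in the GNF-2 population 0 of 8 passed it (background 9.34%). In the nilotinib population 1 of 9, PGD, was at least 2-fold lower (background 5.74%). These shares are near the background, where most genes also stayed within 2-fold of vehicle.

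The 4 clones were next compared with the 3 resistant populations, the contrast with the most calls (7.5% of tested genes, 200 higher and 686 lower in clones). TALDO1 rose in the clones, from 107 ± 6.35 FPKM (SD, n = 3) to 208 ± 29.6 FPKM (SD, n = 4), a log2 difference of 0.94 (SE 0.14, limma adjusted p = 0.0113), and it was the 1 gene of the 9 that was called. The call was lost without the nilotinib population (log2 difference 0.90, limma adjusted p = 0.0674), with resistance group as a covariate (0.85, limma adjusted p = 0.0554) and with the population of origin as a block (0.88, limma adjusted p = 0.142). Over all genes that block gave 13 calls and the fit without the nilotinib population 125, beside 886. GCLC went from 9.20 ± 2.78 FPKM (SD, n = 3) to 18.7 ± 5.05 FPKM (SD, n = 4), a log2 difference of 0.95 (SE 0.26, limma adjusted p = 0.0683), which passed when libraries were rescaled by median ratios (limma adjusted p = 0.0495) or by quantiles (limma adjusted p = 0.039). The lowest adjusted p over all alternatives for GCLC was the quantile one, and the highest was 0.211.

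TALDO1 and GCLC had an unadjusted p under 0.05 (2 of 9, background 27.1%) and were also the 2 of 9 whose clone and resistant-population ranges did not overlap (background 26.3%), shares near those of all genes. Other members were not called, and their levels in clones and populations overlapped: the log2 difference was 1.06 for NQO1 (limma adjusted p = 0.423), 0.61 for TXNRD1 (limma adjusted p = 0.225), 0.27 for SQSTM1 (limma adjusted p = 0.244) and -0.65 for HMOX1 (limma adjusted p = 0.622). The median over the 9 genes was 0.29, beside -0.08 over all tested genes.

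Each clone was then set beside the population that had grown out under the inhibitor of its origin, again with 1 library a side and no test. Clone 1 had 1 of 8 genes past 2-fold over the GNF-2 population, TALDO1, which was higher (background 12.1%). Clone 2 had 1 of 8, GCLM, which was lower (background 13.8%), while HMOX1 stayed under the 5 FPKM needed to be counted. Clone 3 had 2 of 8 past 2-fold over the imatinib population, NQO1 and GCLC, both higher (background 13.6%), and 8 of its 9 genes were above that population. Clone 4 had 6 of 9 past 2-fold over the GNF-2 population, NQO1, HMOX1, GCLM, GCLC, TXNRD1 and TALDO1, all higher (background 13.8%), and 9 of its 9 genes were above that population. HMOX1 was counted there only because its level in Clone 4 reached 5 FPKM (8.95 FPKM, against 3.99 FPKM in the GNF-2 population). In the pairs of Clones 1, 2 and 3 it stayed under 5 FPKM and was left out, at 0.132-fold, 0.0441-fold and 2.01-fold. The count for Clone 4 is therefore not on the same genes as the others. The median difference of the 9 genes in log2(FPKM + 1) was -0.18 in Clone 1, -0.27 in Clone 2, 0.64 in Clone 3 and 1.06 in Clone 4, beside -0.13, -0.07, -0.08 and -0.08 over all tested genes.

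**Figure D2:**
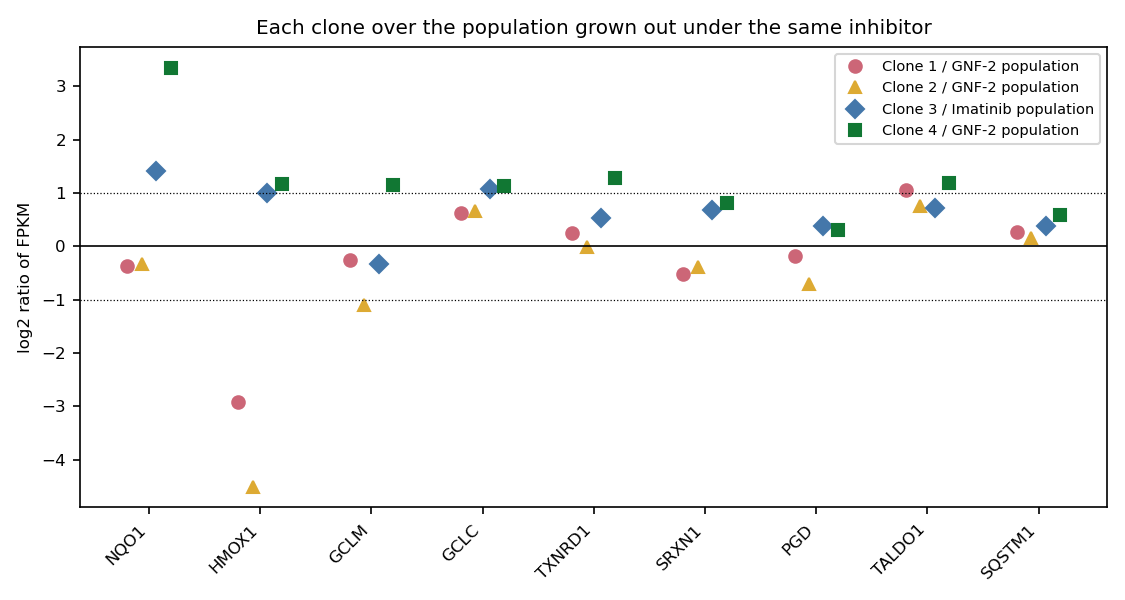
The log2 ratio of FPKM (vertical axis) of each clone to the population grown out under the inhibitor of its origin, for the 9 genes (horizontal axis); each point is 1 pair of libraries, and dotted lines mark 2-fold. Clone 4 is above 0 for 9 of 9 genes, whereas Clone 1 and Clone 2, from the same GNF-2-resistant cells, lie below 0 for NQO1, HMOX1, GCLM, SRXN1 and PGD.

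Clone 4 was set against the other 6 resistant libraries in the fit over all genes, a contrast added after its values had been seen. Clone 4 has no replicate, so the spread in this contrast comes only from the other groups, and its p-values assume that Clone 4 varies like them. The log2 difference was positive for 9 of 9 genes, with a median of 1.14 beside -0.02 over all tested genes, but 0 of the 9 were called (background 0.127%, 15 genes), and 5 of the 9 had an unadjusted p under 0.05 (background 9.43%). Those 5 were NQO1 (3.11, SE 0.51, limma adjusted p = 0.189), TXNRD1 (1.28, SE 0.24, limma adjusted p = 0.268), SRXN1 (1.14, SE 0.30, limma adjusted p = 0.425), GCLM (1.42, SE 0.40, limma adjusted p = 0.426) and GCLC (1.01, SE 0.39, limma adjusted p = 0.521). NQO1 was called only when Clone 3, the library with its second highest level, was left out (3.33, limma adjusted p = 0.0175), and over the other alternatives its limma adjusted p was 0.101 to 0.51. The differences of HMOX1 (1.60), TALDO1 (0.74), PGD (0.48) and SQSTM1 (0.43) had limma adjusted p-values of 0.551 to 0.672. With 1 library, resistance to all 3 inhibitors and the identity of the clone cannot be told apart.

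Relative to the median of the other 7 libraries, including vehicle, NQO1 in Clone 4 was higher by 3.27 on the log2(FPKM + 1) scale, a difference reached by 27 of the tested genes (0.228%). GCLM followed at 1.34, TXNRD1 at 1.27, SRXN1 at 1.16, HMOX1 at 1.15, GCLC at 1.06 and TALDO1 at 0.98, with 2.12% to 4.33% of tested genes as high or higher. SQSTM1 at 0.44 and PGD at 0.32 lay among the bulk of genes (16.4% and 22.7% as high or higher). The 9 genes had a median of 1.15, and all tested genes one of -0.02.

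**Figure D3:**
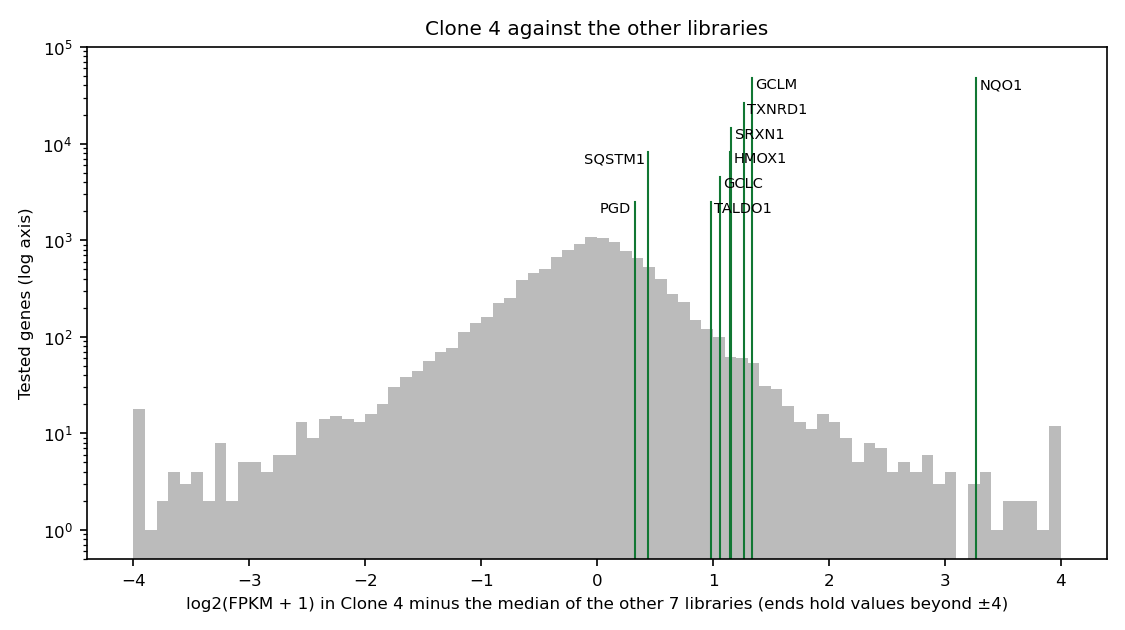
Number of tested genes (vertical axis, log scale) by log2(FPKM + 1) in Clone 4 minus the median of the other 7 libraries (horizontal axis); grey bars are all 11820 tested genes, with values beyond the ends gathered in the end bars, and green lines mark the 9 genes. All 9 lines lie to the right of 0, with NQO1 apart at 3.27.

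Over the 7 libraries without Clone 4, 22 of the 36 pairs among the 9 genes had a positive Pearson correlation of log2(FPKM + 1), with a median r of 0.23. With Clone 4 these were 33 of 36 and 0.56, which follows from its being highest for 8 of the 9 genes. These are descriptions over few libraries that share cells and origin.

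The genes whose levels were most like those of the 3 widest-ranging members were found by Pearson correlation over the 8 libraries among 11420 genes above 0 in every library. For NQO1 these were CCDC71L (r = 0.993), LMAN2L (r = 0.981), FAM167B (r = 0.973) and TMEM41A (r = 0.971), each with Clone 3 second to Clone 4. FAM167B was at 14.2 FPKM in Clone 4 and 3.17 FPKM in Clone 3, with 0.158 to 0.641 FPKM elsewhere. For HMOX1 they were SLC35D2 (r = 0.976), CPD (r = 0.970), ETV1 (r = 0.965) and PLCH1 (r = 0.964), all lowest in Clone 1 and Clone 2. ETV1, an ETS-family transcription factor, was at 0.710 FPKM in Clone 1, 0.0328 FPKM in Clone 2 and 18.3 FPKM in Clone 4. For GCLM they were SLC6A6 (r = 0.979), the transcript uc001gyj (r = 0.968), HLX (r = 0.967) and PVRL2 (r = 0.958), all lowest in Clone 2. SLC6A6, the taurine transporter, went from 8.58 FPKM in Clone 2 to 35.7 FPKM in Clone 4. The named genes have the 4 highest r for each member, so high values follow in part from the choice. All of them were highest in Clone 4, so r rests in part on that library, and r without it is not given. A high r does not mean a like size of change: LMAN2L spanned only 9.66 to 14.7 FPKM.

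The wider pathway was read from 8 lists of related genes, with members named by a rule of calls and ranges. Among the 10 regulators of NRF2 activity, 2 were highest in Clone 4 (background 18.7% of all tested genes). None of the 10 was called by limma in any of the 4 contrasts between groups or kinds. A limma unadjusted p under 0.05 was found for 1, 1, 2 and 2 of the 10, in the order catalytic-site against GNF-2 group, each of these against vehicle, and clones against resistant populations (background 4.87%, 2.69%, 11.1% and 27.1%). NFE2L2 itself, named outside that rule after its values were seen, was at 30.6 to 47.9 FPKM with Clone 4 at 39.9 FPKM, and KEAP1, likewise, was at 28.6 to 45.8 FPKM with Clone 4 (45.8 FPKM) and Clone 2 (45.7 FPKM) highest. The small MAF gene MAFF ranged from 2.61 FPKM in the GNF-2 population to 16.0 FPKM in the vehicle population, with Clone 4 at 3.07 FPKM. NFE2, the NRF2 relative of blood cells, was lowest in Clone 4 (23.8 FPKM, against up to 56.1 FPKM in Clone 1), and MAFG was at 57.0 FPKM in Clone 4, within its range of 35.6 to 60.3 FPKM. NRF2 transcript level in Clone 4 thus lay inside the range of the other libraries.

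In the glutathione list 4 of 17 tested genes were highest in Clone 4 (background 18.7%). The cystine importer SLC7A11 was at 2.37 FPKM in the vehicle population and 2.23 FPKM in the imatinib population, 3.63 FPKM in Clone 2, 6.26 FPKM in the nilotinib population, and 12.1 to 16.1 FPKM in the GNF-2 population and Clones 1, 3 and 4. CHAC1, which degrades glutathione, went from 5.93 FPKM in the vehicle population to 54.0 FPKM in Clone 4, with Clone 2 at 8.08 FPKM. In the same order of contrasts 0, 0, 0 and 2 of the 17 genes had a limma unadjusted p under 0.05 (background 4.87%, 2.69%, 11.1% and 27.1%). The exporter ABCC4 rose in clones against resistant populations (15.5 to 19.1 FPKM against 7.18 to 10.7 FPKM, log2 difference 0.89, limma adjusted p = 0.0208). It was the 1 called gene of the 17 (background 7.5% in that contrast). That call was lost with the origin block (0.72, limma adjusted p = 0.158), with the covariate (0.78, limma adjusted p = 0.0779) and on leaving out Clone 1, the nilotinib or the imatinib population (limma adjusted p of 0.0563 to 0.0953). MGST1, a microsomal glutathione transferase, was lowest in Clone 4 at 126 FPKM and highest in Clone 3 at 349 FPKM.

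In the thioredoxin and peroxiredoxin list 3 of 12 tested genes were highest in Clone 4 (background 18.7%). PRDX1, an abundant peroxiredoxin and substrate of sulfiredoxin, was at 1463 FPKM in Clone 4 and at 312 to 449 FPKM in the other 7 libraries, 3.26-fold above the next. Its listed span overlaps that of MMACHC, which was listed at 0 in every library. TXNIP, which binds and inhibits thioredoxin, fell in the clones, from 164 to 359 FPKM in the resistant populations to 27.1 to 52.8 FPKM (log2 difference -2.5, limma adjusted p = 0.00738). It was the 1 call among the 12 genes (background 7.5% in that contrast) and stayed called in all 18 alternatives (limma adjusted p at most 0.0406). In the same order of contrasts 0, 0, 0 and 6 of the 12 had a limma unadjusted p under 0.05 (background 4.87%, 2.69%, 11.1% and 27.1%). SESN2, a stress-induced sestrin, was at 2.38 to 3.75 FPKM in the vehicle population, the imatinib population and Clone 2 and at 10.6 to 13.8 FPKM in the others.

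Of 10 tested genes that supply NADPH or belong to the pentose phosphate pathway 3 were highest in Clone 4 (background 18.7%). Among them were ME1, the cytosolic malic enzyme, at 142 FPKM (46.3 to 86.6 FPKM elsewhere), and IDH1, the cytosolic isocitrate dehydrogenase, at 64.9 FPKM (25.2 to 51.8 FPKM elsewhere). None of the 10 was called by limma in the 4 contrasts between groups or kinds, and 2, 0, 1 and 3 of them had an unadjusted p under 0.05 in the same order (background 4.87%, 2.69%, 11.1% and 27.1%).

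Among quinone and carbonyl detoxifying genes 4 of 10 tested were highest in Clone 4 (background 18.7%). OSGIN1, an oxidative stress-induced growth inhibitor, was at 5.44 FPKM there and at 0.519 to 1.79 FPKM elsewhere, 3.03-fold above the next. EPHX1, the microsomal epoxide hydrolase, was highest in Clone 2 (111 FPKM) and next in Clone 4 (86.1 FPKM), with 13.6 to 37.6 FPKM elsewhere. CBR3, a carbonyl reductase, was at 0.0975 FPKM in Clone 1 and at 2.39 to 8.96 FPKM in the other libraries. None of the 10 was called by limma in those contrasts, and 2, 0, 1 and 2 had an unadjusted p under 0.05 in the same order and against the same background.

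In the heme and iron list 3 of 8 were highest in Clone 4 (background 18.7%). In the same order of contrasts 1, 1, 1 and 4 of the 8 had a limma unadjusted p under 0.05 (background 4.87%, 2.69%, 11.1% and 27.1%). TFRC, the transferrin receptor, rose in the clones (68.2 to 137 FPKM against 12.7 to 40.7 FPKM in the resistant populations, log2 difference 2.03, limma adjusted p = 0.0254). It was the 1 called gene of the 8 (background 7.5% in that contrast). That call was lost with the origin block (1.43, limma adjusted p = 0.0596), with the covariate (1.59, limma adjusted p = 0.0629) and on leaving out Clone 1, Clone 4, the nilotinib or the imatinib population (limma adjusted p of 0.0516 to 0.0985). The ferritin light chain FTL was lowest in Clone 2 at 1626 FPKM and highest in Clone 3 at 5406 FPKM, with Clone 4 at 4918 FPKM, and the iron exporter SLC40A1 was at 1.22 to 6.34 FPKM. Among 8 autophagy genes 1 was highest in Clone 4 (background 18.7%). Of those named by the rule, GABARAPL1 was at 12.1 to 32.4 FPKM, NBR1 at 21.0 to 44.5 FPKM and ULK1 at 8.04 to 16.1 FPKM. Neither SOD1 (256 to 368 FPKM) nor CAT (28.5 to 41.7 FPKM), the 2 tested genes for removal of superoxide and peroxide, was highest in Clone 4, and CAT was lowest there. The autophagy and superoxide lists had no gene called by limma in the 4 contrasts, and 1 gene of each had an unadjusted p under 0.05, both in clones against resistant populations (background 27.1%).

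**Figure D4:**
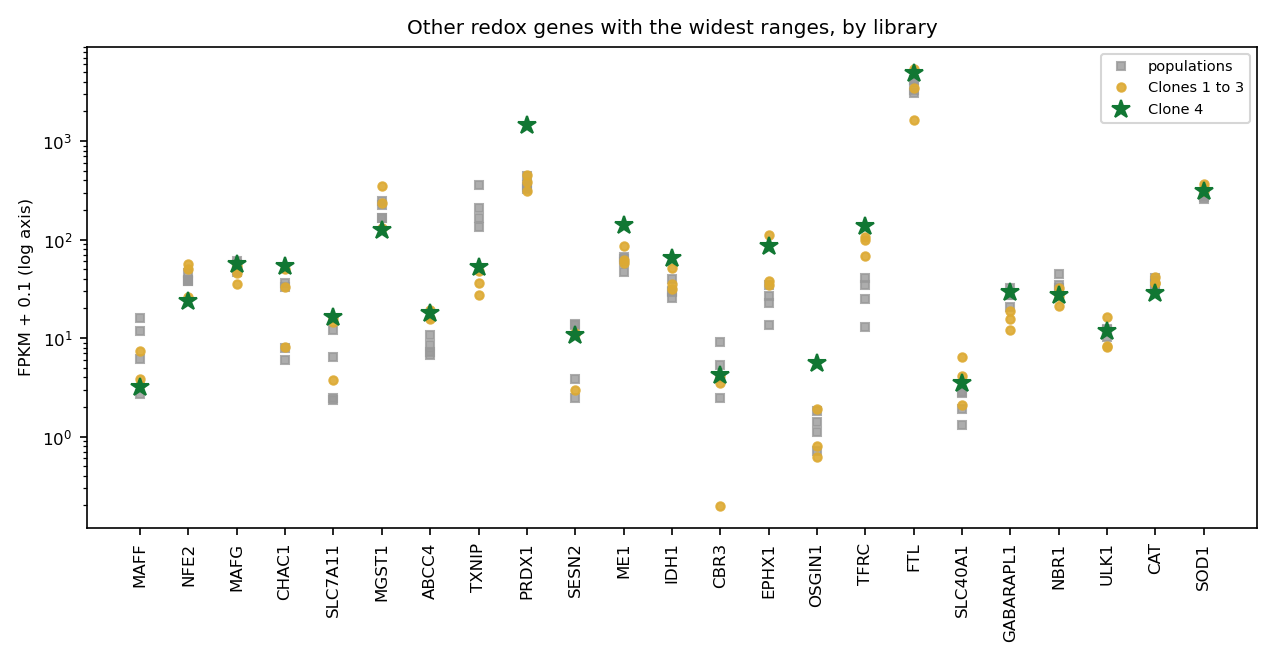
FPKM + 0.1 (vertical axis, log scale) of genes named from the 8 related lists (horizontal axis); grey squares are the 4 populations, yellow circles Clones 1 to 3 and green stars Clone 4, with 1 point per library. Clone 4 stands apart from all other libraries for PRDX1 at 1463 FPKM and OSGIN1 at 5.44 FPKM, and TXNIP is lower in all 4 clones than in the 4 populations.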

How the data were processed

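RNA of 8 KCL-22 libraries was extracted with RNeasy Plus Mini columns and sequenced by Illumina protocols, per the labels' protocols. The authors deposited FPKM values; alignment with TopHat 1.3, Cufflinks 1.3 and the build GRCh37 are named in the submitters' processing notes. The header does not name the unit, which was taken from the tool and the values (sums of 497775 to 583520 per library). Other upstream settings are not given in the sources used here.

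Of 31402 entries, 70 lacked a value in at least 1 library and 534 were lower rows of a repeated symbol; both were left out. Tested genes averaged at least 1 FPKM. limma 3.58.1 in R 4.3.3 fitted log2(FPKM + 1) with 1 mean per resistance group (4 residual degrees of freedom) or per kind of library (vehicle population, resistant population, clone; 5 degrees), using eBayes with a trend. Fold changes on this scale understate those of low genes. Tests were two-sided, with Benjamini-Hochberg adjustment over all tested genes, called at 0.05; the script was tested on simulated data. Levels in the text are FPKM; ratios between single libraries are of FPKM. Read counts were not used, so depth is a rough estimate: the lowest step of FPKM multiplied by length, taken as 1 fragment, in 612 genes without introns and of 1000 to 8000 bases.

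The 9 genes, the related lists and the tests were chosen with earlier results of these data known. All 9 genes were named; from each related list, called genes and then up to 3 of widest range; for the 3 widest members, the 4 genes most correlated. Single values of 2 genes of these lists are not reported here. Alternatives were pseudocounts 0.1 and 5, other filters, median-ratio and quantile scaling, no trend, a covariate, a block on origin (added after the data were seen), and leaving out each library. Promoters were from RefSeq, and figures used Python 3.11.15, numpy 2.4.6, pandas 2.3.3 and matplotlib 3.10.9.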

Additional observations from a re-analysis of the deposited data

Results flagged for a closer look

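Clone 4 moved away from the GNF-2 population in the opposite direction to Clone 1 and Clone 2 for 5 of the 9 genes, although all 3 clones were sorted from GNF-2-resistant cells. The difference was not tested, since Clone 4 is 1 library. Clone 4 was above that population for all 9 genes, so these 5 are the genes that were lower in both Clone 1 and Clone 2. The share of all tested genes that moved apart in this way was not counted, so 5 of 9 cannot be called unusual. On the log2(FPKM + 1) scale NQO1 differed from the GNF-2 population by 3.123 in Clone 4, -0.3095 in Clone 1 and -0.2676 in Clone 2. HMOX1 differed by 0.9968 in Clone 4, -1.709 in Clone 1 and -2.084 in Clone 2. GCLM differed by 1.097, -0.2387 and -0.9807 in the same order. SRXN1 differed by 0.7871, -0.5063 and -0.3693. PGD differed by 0.309, -0.1836 and -0.6944.

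Of 33 genes checked over the 4 clones on the log2(FPKM + 1) scale, 3 had 1 clone far from the rest, judged by the gap to the nearest clone as a share of the whole range (above Dixon's critical value at the 95% level). Chance flags about 1 in 20 such groups where genes are not selected. Apart from the 9 members, the genes checked were picked by a call or a wide range in these same libraries. That rate does not apply to them, and all 3 flagged genes were picked by range. SLC7A11 was low in Clone 2 (0.919 of the range), SESN2 was low in Clone 2 (0.967) and CBR3 was low in Clone 1 (0.904).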

How the results depend on the processing

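The count of 8 genes highest in Clone 4 was the same under median-ratio and quantile scaling, and all 9 differences of Clone 4 from the other resistant libraries stayed positive under all alternatives. In the clone contrast, members called were 2 with median-ratio or quantile scaling, 0 with the covariate and 0 to 1 on leaving out a library; for Clone 4 they were 0 to 1. Genes called between the 2 resistance groups (4) were 2 with a mean FPKM of at least 5, 0 with only genes above 0 in all 8 libraries and 1 to 8 on leaving out a library. For the catalytic-site group against vehicle (1) they were 6 and 3 with pseudocounts 0.1 and 5, 58 with no filter, 2 with the minimum of 5, 5 without a trend, 0 with genes above 0, 4 with the covariate and 0 to 1 on leaving out a library. For the GNF-2 group against vehicle (11) they were 78 with no filter, 7 with the minimum of 5, 0 with genes above 0 and 1 to 12 on leaving out a library. For clones against populations (886) they were 237 with the covariate and 125 to 1096 on leaving out a library. For Clone 4 (15) they were 98 with no filter, 1 with genes above 0 and 6 to 23 on leaving out a library. The cause was not tested. Differences changed sign under some alternative for 4 members between the resistance groups (GCLM, NQO1, SQSTM1, SRXN1) and 3 members between clones and populations. Against vehicle they did so for 5 and 3 members in the catalytic-site and GNF-2 groups. Not all of these were near 0 in the main fit. The log2 difference was 0.41 for NQO1 between the resistance groups and 0.41 for TALDO1 between the GNF-2 group and vehicle. The reversed values were at most 0.353 in size. Replicate numbers were given in accession order and pair no libraries. The labels do tie clones to the inhibitor of their origin, and a block on that origin, added after the data were seen, gave 13 genes and 0 members called in the clone contrast. Vehicle and Clone 4 have 1 library each, and depth was only estimated.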
